A study of Mus musculus with 8 samples.

Results

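MHC class I heavy chains are the membrane chains of class I molecules, most of which hold a peptide at the cell surface. Their 10 members here are H2-K1, H2-D1, H2-Q2, H2-Q4, H2-Q6, H2-Q7, H2-T22, H2-T23, H2-T24 and H2-M3, chosen by gene symbol, and all 10 were found among the 31406 genes of the count table that compares the groups. RNA was sequenced in 8 libraries from primary cultures of mouse microglia (wild type), the macrophages that reside in the brain, which the methods say were prepared from the striatum of newborn C57/BL6 pups. After 15 days in culture, all 8 were activated with LPS (0.01% v/v) and interferon-γ (0.002% v/v) over 48 h, and ligands were given at 24, 32 and 40 h. All 8 received SCH 58261, an antagonist of the adenosine A2A receptor, alone in 4 libraries (A2A antagonist group) and together with 200 nM 2-Cl-IB-MECA, an agonist of the adenosine A3 receptor, in the other 4 (dual group). The comparison asks how adding the A3 receptor agonist to the A2A receptor antagonist alters transcription. The titles of the samples and the names of the count columns give this grouping. The treatment field of the labels goes against them, with 2-Cl-IB-MECA under the titles that name SCH 58261 alone and no ligand under the titles that name both, so every direction below rests on the titles. The time field gives day 3, which matches neither the days in culture nor the hours of activation. The methods state fewer replicates of ligand-treated cells than the 4 libraries of each group, whereas the legend of the authors' heatmap gives 4. The methods list the interferon-γ as human. The labels do not say whether the 4 libraries of a group came from separate cultures or animals, so p-values measure the spread between these libraries, which may be technical. Libraries with vehicle alone were not analysed here.

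A class I molecule consists of a heavy chain, the light chain β2-microglobulin and, in most cases, a peptide that was cut by the proteasome and pumped into the endoplasmic reticulum by the TAP transporter. H2-K1 and H2-D1 encode the classical chains, which show peptides to CD8 T cells. The Q, T and M genes encode nonclassical chains, several of which are ligands of natural killer cell or γδ T cell receptors. Interferon-γ is the best known inducer of the family, through IRF1 and the transactivator NLRC5, and microglia carry little class I at rest and more when activated.

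Libraries of the A2A antagonist group held 38427491 to 45878639 counts and those of the dual group 32630602 to 45544451, of which the 10 members took 0.637% to 0.697% and 0.591% to 0.637%. Markers were used to check the label. All 10 microglia markers were counted in every library, with a summed level of 1242 to 1339 CPM (counts per 1e6 counts, scaled with TMM factors) in the A2A antagonist group and 1175 to 1248 CPM in the dual group. All 8 astrocyte markers (6087 to 6624 CPM over both groups) and all 6 fibroblast markers (2369 to 2986 CPM) were counted in every library too. Both sums lay above that of the microglia markers, although the methods report a high purity by CD11b labelling. Sums over different genes do not measure cell numbers, and which cells the class I RNA came from is not resolved. Of 5 markers of T and NK cells, which carry class I at high levels, Cd3g and Ncr1 were not listed and the rest summed to 0.361 CPM or less.

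The 10 genes lie on chromosome 17 in GRCm38, over 3278 kb of the H2 region, and the annotation calls each of them protein coding. H2-K1 (ENSMUSG00000061232) lies at chr17:33996017-34000333 on the reverse strand. H2-D1 (ENSMUSG00000073411) lies at chr17:35262730-35267499 on the forward strand, at the head of the D and Q genes. H2-Q2 (ENSMUSG00000091705, chr17:35342242-35346762), H2-Q4 (ENSMUSG00000035929, chr17:35379617-35385290), H2-Q6 (ENSMUSG00000073409, chr17:35424850-35430055) and H2-Q7 (ENSMUSG00000060550, chr17:35439155-35443773) follow on the same strand. H2-T24 (ENSMUSG00000053835, chr17:36005695-36020560), H2-T23 (ENSMUSG00000067212, chr17:36029773-36032855) and H2-T22 (ENSMUSG00000056116, chr17:36037128-36042747) are on the reverse strand. H2-M3 (ENSMUSG00000016206, chr17:37270220-37274484) is the outermost, on the forward strand. The H2 genes differ between mouse strains in sequence and, for the Q genes, in number. The reference genome is that of C57BL/6J, and the methods name C57/BL6 mice without a substrain. No other haplotype was measured.

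Class I promoters are known for the elements through which interferon and inflammatory stimuli act, a κB element and an interferon-stimulated response element (ISRE), followed by a module bound by RFX, CREB/ATF and NF-Y proteins with NLRC5. RefSeq windows (GRCm38.p6) from 250 bases before to 50 bases after the transcription start were present for 9 of the 10 genes, H2-T24 being the other. The letters GGGGATTCC (κB element) were found in 4 of the 9, H2-K1, H2-D1, H2-Q6 and H2-Q7, and in 82 of all 32851 windows (0.250%), on either strand. The letters TTTCACTT (ISRE core) were found in 7 of the 9, all but H2-Q2 and H2-T23, and in 1.60% of all windows. Only 5 of the 32851 windows held both, and these belonged to 4 genes, H2-K1, H2-D1, H2-Q6 and H2-Q7. The letters searched were those of class I promoter elements, so matches in these genes are a description and not a test. TGACG, the core of a CREB/ATF site, was found in 6 of the 9 (20.8% of all windows) and CCAAT, the NF-Y site, in 9 of the 9 (37.4%). No match of one motif overlapped a match of another in the 9 windows. Only these exact letters were searched, so variants of the elements were not counted. The 200 bases before the start are given for the 4 genes with both strings and for H2-Q2 and H2-T23, with neither. They read 5′ to 3′ on the strand of the gene, with GGGGATTCC and TTTCACTT in capitals. They lie at chr17:34000334-34000533 (H2-K1), chr17:35262894-35263093 (H2-D1), chr17:35424650-35424849 (H2-Q6), chr17:35438955-35439154 (H2-Q7), chr17:35342107-35342306 (H2-Q2) and chr17:36032702-36032901 (H2-T23).
H2-K1: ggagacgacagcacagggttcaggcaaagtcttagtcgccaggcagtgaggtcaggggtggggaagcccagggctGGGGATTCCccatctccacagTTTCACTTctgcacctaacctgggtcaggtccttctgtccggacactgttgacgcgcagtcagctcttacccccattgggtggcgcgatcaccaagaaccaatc
H2-D1: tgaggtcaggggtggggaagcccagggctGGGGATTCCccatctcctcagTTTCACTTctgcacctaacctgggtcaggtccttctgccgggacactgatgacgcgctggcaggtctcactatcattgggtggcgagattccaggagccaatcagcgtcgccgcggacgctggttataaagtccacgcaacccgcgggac
H2-Q6: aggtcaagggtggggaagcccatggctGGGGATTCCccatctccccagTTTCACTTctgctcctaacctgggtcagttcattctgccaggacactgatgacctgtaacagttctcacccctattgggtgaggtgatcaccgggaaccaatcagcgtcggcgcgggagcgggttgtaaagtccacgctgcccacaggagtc
H2-Q7: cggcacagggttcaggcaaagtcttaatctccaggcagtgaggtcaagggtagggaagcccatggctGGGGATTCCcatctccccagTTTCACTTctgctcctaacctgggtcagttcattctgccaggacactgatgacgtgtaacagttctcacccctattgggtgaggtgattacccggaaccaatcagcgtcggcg
H2-Q2: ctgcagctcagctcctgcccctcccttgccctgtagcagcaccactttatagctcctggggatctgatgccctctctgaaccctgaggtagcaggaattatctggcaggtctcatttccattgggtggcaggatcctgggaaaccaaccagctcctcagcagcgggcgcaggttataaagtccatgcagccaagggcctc
H2-T23: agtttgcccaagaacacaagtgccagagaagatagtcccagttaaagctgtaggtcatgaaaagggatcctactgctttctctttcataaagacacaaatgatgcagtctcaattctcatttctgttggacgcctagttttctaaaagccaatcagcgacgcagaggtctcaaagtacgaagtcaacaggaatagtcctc

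The windows of H2-Q6 and H2-Q7 were 97.7% identical over 260 aligned bases, and those of H2-K1 and H2-D1 87.7% over 253. The κB letters began at position -125 in H2-K1, -171 in H2-D1, -173 in H2-Q6 and -133 in H2-Q7, where -1 is the last base before the start, and the ISRE letters followed at -104, -150, -152 and -113. H2-Q4 (-153), H2-T22 (-191) and H2-M3 (-101) held the ISRE letters only. The start that RefSeq gives lay 364 bases downstream of the start in the deposited table for H2-D1 and 154 bases downstream for H2-T23. A match of letters is a description and does not show that a factor was bound.

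**Figure D1:**
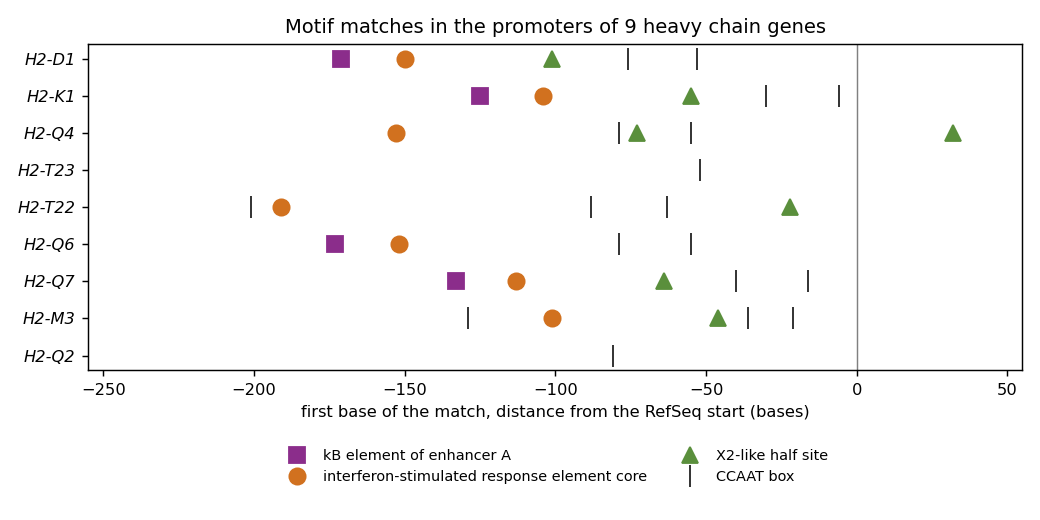
Positions of 4 motifs in the promoter windows of 9 heavy chain genes. The x axis gives the distance of the first matching base from the RefSeq start in bases, each row is a gene, and symbols mark the motifs. The exact letters of the κB element and the ISRE core stand together in H2-D1, H2-K1, H2-Q6 and H2-Q7. Neither string of letters is found in H2-T23 or H2-Q2, and variants were not searched.

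Levels were compared between genes per kilobase of gene length. H2-D1 was the highest, at 1398 CPM per kb as the mean of 8 libraries, and made up 56.5% of the summed level of the 10 genes. H2-K1 followed at 535 CPM per kb (21.6%), so the classical pair held more than the 8 nonclassical genes together. Among the nonclassical genes, H2-Q4 stood at 143, H2-T23 at 142, H2-T22 at 101 and H2-Q6 at 83.5 CPM per kb. H2-T24 (33.8), H2-Q7 (19.6) and H2-M3 (18.9) were lower, and H2-Q2 stood at 0.654 CPM per kb, with only 31 to 88 counts per library. The ranges of H2-Q4 and H2-T23 overlapped in both groups, as did those of H2-Q7 and H2-M3, so the order within these pairs is not resolved. All other neighbours in the order were separated in both groups, from a ratio of 1.21 between H2-T22 and H2-Q6 to 28.9 between H2-M3 and H2-Q2. The order was the same for 10 of 10 genes in the deposited FPKM values. Those rest on the same counts and gene lengths, so this is not an independent check.

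**Figure D2:**
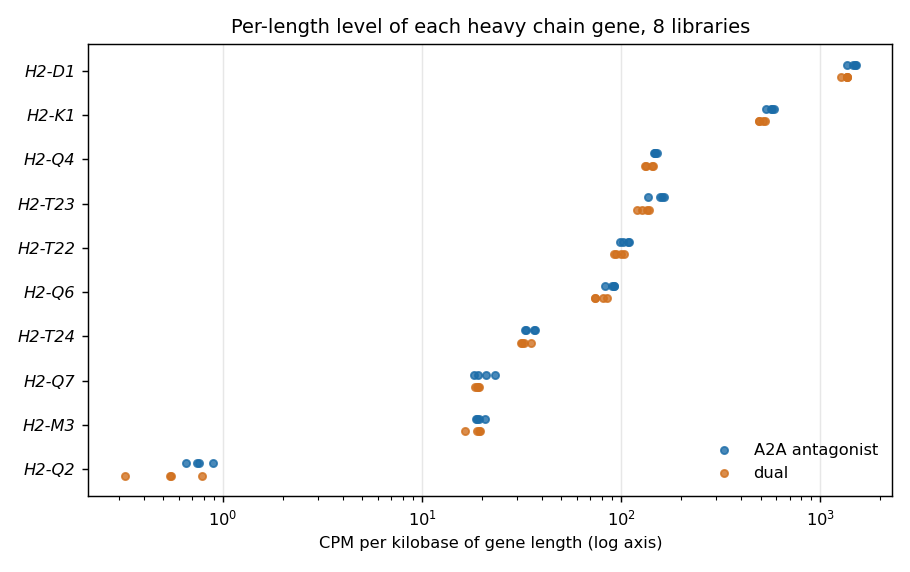
Per-length level of the 10 heavy chain genes. The x axis is CPM per kilobase of gene length on a log axis, each point is a library, and colours mark the A2A antagonist and dual groups. H2-D1 and H2-K1 lie above the nonclassical genes in all 8 libraries, and H2-Q2 lies far below.

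These genes share sequence with each other and with genes outside the class I family, which limits how precisely reads can be assigned to one of them. Sequence was compared with the annotated transcripts of all genes, on both strands. Among the 31-base words of the annotated transcripts, 67.4% of those of H2-T22 also occurred in transcripts of another gene (47.2% in its near copy H2-T10), as did 53.0% for H2-Q4, 51.8% for H2-Q6, 39.2% for H2-Q7 and 32.8% for H2-Q2. The share was 26.9% for H2-D1, 25.8% for H2-T23, 22.8% for H2-K1, 6.61% for H2-T24 and 4.62% for H2-M3. At 150 bases, the length of a read, it dropped to 5.99% for H2-Q6, 5.90% for H2-Q7, 2.56% for H2-Q2, 1.35% for H2-D1 and 0.331% for H2-T23, and to 0 for H2-K1, H2-T24 and H2-M3. It remained at 22.3% for H2-T22 and 9.87% for H2-Q4, which overlap exons of A930015D03Rik (1003 of 3414 bases) and Gm11131 (496 of 2596 bases) on the opposite strand. Whether the counting used strand, and what it did with reads that map to several genes, is not given in the sources used here, so the counts of H2-T22, H2-Q4, H2-Q6 and H2-Q7 are the least certain.

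The fitted level of each of the 10 heavy chains was lower in the dual group than in the A2A antagonist group, with differences from -4.31% (H2-M3) to -28.7% (H2-Q2), and no single gene passed the test after adjustment. H2-T23, H2-K1 and H2-Q6 had the smallest adjusted p-values. The number of members with an adjusted p-value under 0.05 in edgeR's quasi-likelihood test was 0 of 10 (4 in DESeq2), against 0.16% of all 18756 genes tested called lower and 0.048% called higher. At an unadjusted p-value under 0.05, 7 of 10 members were lower, against 6.81% of all genes. All 10 estimates were below 0, against 48.5% of all genes, and their median log2 fold change was -0.11, against 0.0038 over all genes. These are 10 related genes that share reads, not 10 independent measurements. In bulk RNA, fewer cells that carry class I and less class I RNA per cell cannot be told apart.

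**Figure D3:**
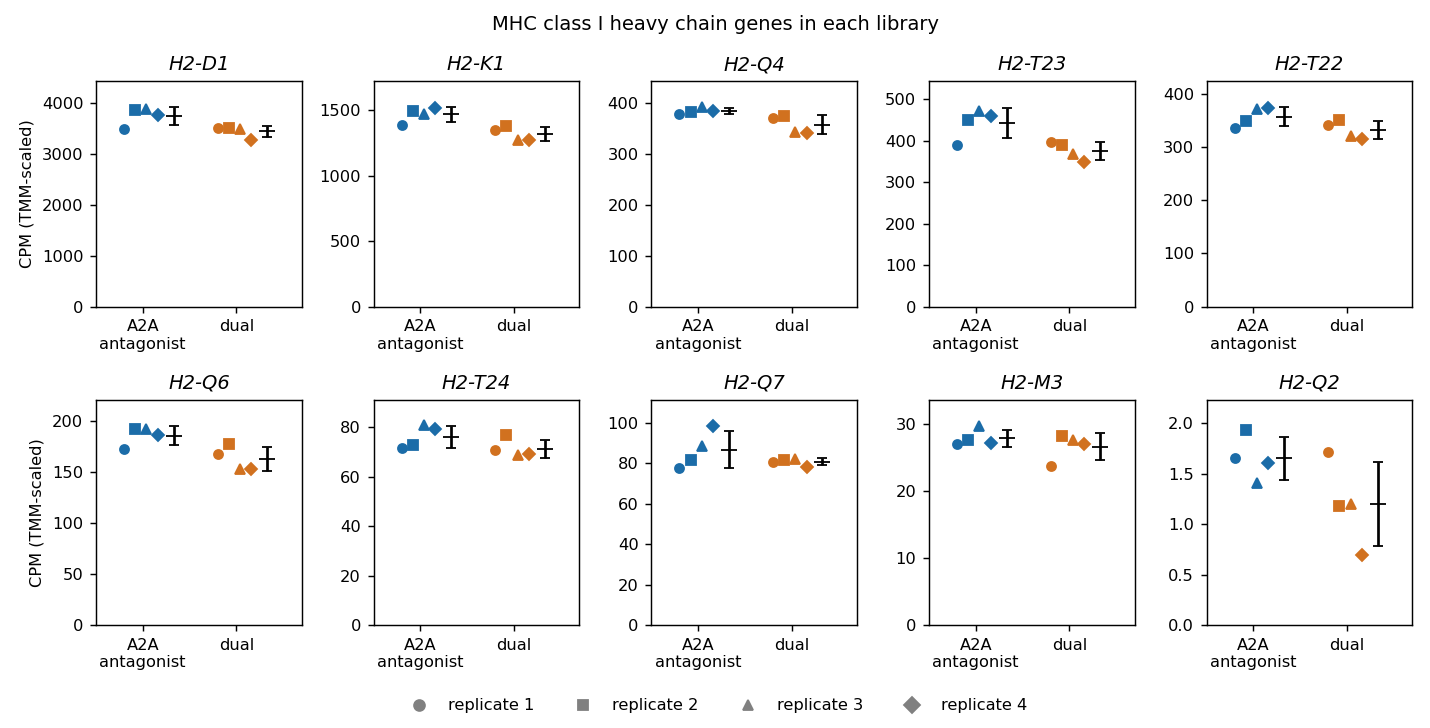
Level of each heavy chain gene in every library. The y axis is TMM-scaled CPM from 0, symbols mark replicates 1 to 4, and the bar beside each group is the mean ± SD of 4 libraries. The groups do not overlap for H2-K1 and H2-Q4, and A2A antagonist replicate 1 is the lowest of its group in 9 of the 10 genes.

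H2-K1, a classical chain, stood at 1389, 1494, 1474 and 1522 CPM in A2A antagonist replicates 1 to 4 and at 1347, 1381, 1274 and 1275 CPM in dual replicates 1 to 4. All 4 dual libraries lay below the lowest A2A antagonist library, although the gap between replicate 1 of the latter and dual replicate 2 was small. The group means were 1469.9 ± 57.3 and 1319 ± 53.3 CPM (SD, n = 4), a difference of -10.3% (95% interval -14.8% to -5.45%) and a log2 fold change of -0.16 ± 0.036 (SE). The adjusted p-value was 0.0667 (edgeR). H2-D1, the other classical chain, stood at 3499, 3862, 3886 and 3778 CPM in the A2A antagonist group and at 3522, 3508, 3497 and 3287 CPM in the dual group. The groups overlapped, since A2A antagonist replicate 1 lay below 2 of the dual libraries, and dual replicate 4 lay well below the rest. The difference was -8.05% (95% interval -12.7% to -3.15%), on the log2 scale -0.12 ± 0.036 (SE), at an adjusted p-value of 0.146 (edgeR).

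H2-T23 encodes Qa-1, which presents leader peptides of other class I chains to the CD94/NKG2A receptor of natural killer cells. It stood at 391, 449.6, 472 and 461 CPM in the A2A antagonist group and at 397, 389.8, 369 and 348 CPM in the dual group. Its A2A antagonist replicate 1 lay within the range of the dual group, and the other 3 lay above all 4 dual libraries. Its difference was the largest after that of H2-Q2, at -15.3% (95% interval -21.3% to -8.73%), on the log2 scale -0.24 ± 0.051 (SE), at an adjusted p-value of 0.0602 (edgeR).

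H2-Q6 and H2-Q7 encode the Qa-2 antigen. H2-Q6 stood at 172, 192, 192 and 186 CPM in the A2A antagonist group and at 168, 177, 153 and 153 CPM in the dual group, and the groups overlapped only through A2A antagonist replicate 1 and dual replicate 2. The difference was -12.4% (95% interval -18.2% to -6.10%), on the log2 scale -0.19 ± 0.047 (SE), at an adjusted p-value of 0.0907 (edgeR). H2-Q7 stood at 77.9, 81.7, 88.7 and 98.6 CPM in the A2A antagonist group and at 80.7, 81.6, 82.3 and 78.3 CPM in the dual group. The dual libraries were close together within the wide range of the A2A antagonist libraries, and the interval of the difference, -6.98%, included 0 (-14.2% to 0.807%, adjusted p-value 0.449, edgeR). Summed, H2-Q6 and H2-Q7, which share sequence, came to 272 ± 15.7 and 243 ± 12.5 CPM (SD, n = 4), a difference of -10.6%.

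H2-Q4, a further nonclassical gene of the Q region, was the tightest member in the A2A antagonist group, at 379, 384, 394 and 384 CPM, and stood at 372, 376, 344 and 341 CPM in the dual group. With H2-K1 it made 2 of 10 members whose groups did not overlap, against 4.06% of all genes tested that were lower without overlap. The difference was -7.08% (95% interval -11.8% to -2.08%, adjusted p-value 0.205, edgeR). H2-Q2, of the same region, stood at 1.66, 1.93, 1.41 and 1.61 CPM in the A2A antagonist group and at 1.72, 1.18, 1.20 and 0.699 CPM in the dual group. Dual replicate 1 lay among the A2A antagonist libraries, the other 3 dual libraries lay below them, and the interval was wide (-28.7%, 95% interval -48.3% to -1.48%, adjusted p-value 0.361, edgeR). Its coefficient of variation was 13.1% in the A2A antagonist group and 34.6% in the dual group. Counting alone gives 13.0% at its mean count over both groups.

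H2-T22 encodes a chain that binds γδ T cell receptors without a peptide. It stood at 335, 349, 371 and 374 CPM in the A2A antagonist group and at 341, 351, 320.3 and 314 CPM in the dual group, where replicates 3 and 4 lay below all A2A antagonist libraries and replicates 1 and 2 lay among them (-7.14%, 95% interval -12.6% to -1.32%, adjusted p-value 0.279, edgeR). Together with H2-T10 it came to 378 ± 19.9 and 352 ± 18.0 CPM (SD, n = 4), a difference of -6.87%. H2-T24, also in the T region, stood at 71.6, 72.6, 80.8 and 79.2 CPM in the A2A antagonist group. In the dual group it stood at 70.8, 76.6, 68.6 and 69.3 CPM, overlapping through dual replicate 2 (-6.24%, 95% interval -12.5% to 0.424%, adjusted p-value 0.425, edgeR). H2-M3, which presents bacterial peptides that begin with N-formylmethionine, stood at 26.9, 27.6, 29.7 and 27.1 CPM in the A2A antagonist group and at 23.6, 28.1, 27.6 and 27.0 CPM in the dual group. Only dual replicate 1 lay clearly apart, at the low end, and the difference was the smallest of the 10 (-4.31%, 95% interval -11.9% to 3.90%, adjusted p-value 0.691, edgeR).

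The calls depended on the test and on single libraries. DESeq2's Wald test called 4 members lower, H2-D1 (adjusted p = 0.0354), H2-K1 (0.0027), H2-Q6 (0.0111) and H2-T23 (0.0017), of 9 with an adjusted p-value, against 2.42% of the 11313 genes that received one. The same 4 were called by edgeR without the filter on low counts (0.806% of all genes) and without A2A antagonist replicate 1 (0.661%), the library that was lowest in its group for 9 of the 10 genes. Without dual replicate 2, H2-Q6 alone was called (adjusted p = 0.0470), and without any other library no member was. The estimates themselves stayed below 0 in all 119 member fits over 12 alternatives (H2-Q2 was not counted for DESeq2, which gave it no adjusted p-value).

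**Figure D4:**
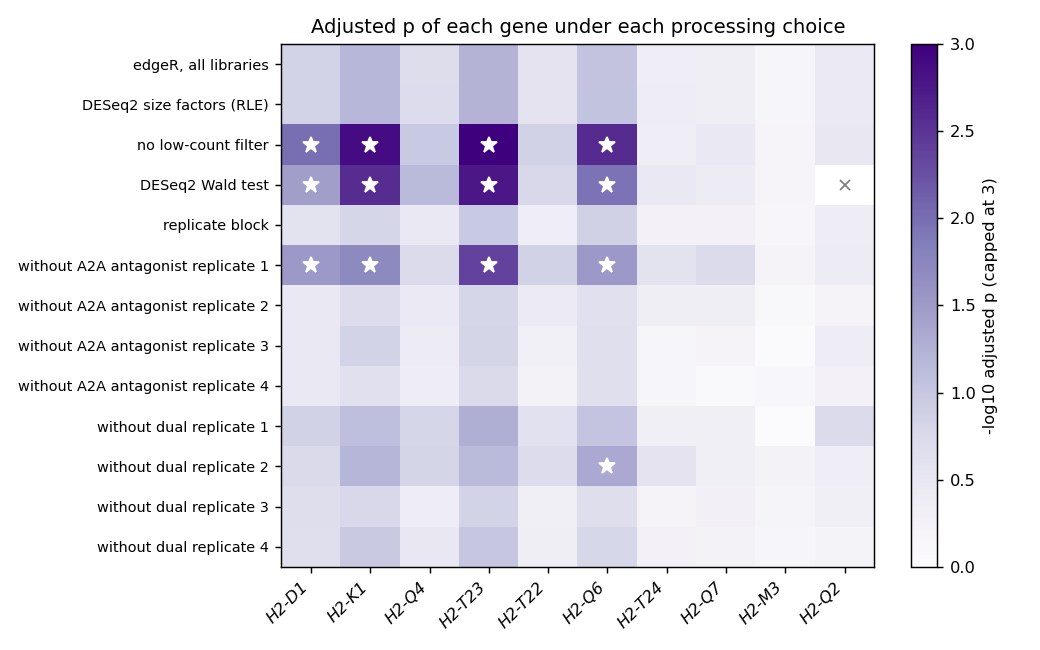
Adjusted p-value of each heavy chain gene (columns) under each processing choice (rows). Darker cells have a larger -log10 adjusted p, capped at 3 in the colour scale, stars mark values under 0.05 and the cross marks a gene to which DESeq2 gave no adjusted p-value. Stars appear for H2-D1, H2-K1, H2-Q6 and H2-T23 under 3 choices and for H2-Q6 under 1 more.

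The make-up of the family was close in both groups. H2-D1 stood at 2.58 ± 0.0694 times the per-length level of H2-K1 in the A2A antagonist group and 2.65 ± 0.0895 times in the dual group, and the pair took 78.0% ± 0.318 and 78.2% ± 0.443 of the summed level (SD, n = 4), with overlapping ranges. The CPM of the 10 genes summed to 6343 to 6989 in the A2A antagonist group and 5893 to 6371 in the dual group, a mean difference of -8.96% with an overlap through A2A antagonist replicate 1. The 8 nonclassical genes alone summed to 1563 ± 78.2 and 1408 ± 71.3 CPM (SD, n = 4), a difference of -9.94%. Relative to the per-length level of B2m, the light chain, the summed heavy chains stood at 0.902 ± 0.0304 and 0.861 ± 0.0560 (SD, n = 4), again with overlapping ranges.

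The summed CPM of the microglia markers differed by -6.75% between the groups, with overlapping ranges. Of the 10 markers, 6 had an estimate below 0 and 4 above 0, with a median of -0.021. The largest falls in mean CPM were those of C1qa (476 to 403) and C1qb (234 to 207). The log2 fold changes of P2ry12 (0.28), Cx3cr1 (0.034) and Tmem119 (-0.0012) were not called. C1qa, a complement component, was called lower (log2 fold change -0.24, adjusted p-value 0.0240, edgeR). DESeq2's Wald test called C1qa, C1qb and Aif1 lower and 0 markers higher, of 9 to which it gave an adjusted p-value. In edgeR, C1qb (log2 fold change -0.18, adjusted p-value 0.0651), Aif1 (-0.21, 0.110), Csf1r (0.11, adjusted p-value 0.171) and Itgam, which encodes CD11b (0.042, adjusted p-value 0.711), were not called. The C1qa call was lost when dual replicate 3 was left out (adjusted p-value 0.0650), and it was lost too when 1 of the A2A antagonist libraries 2, 3 and 4 was (0.0648 to 0.0932). Summed markers of the oligodendrocyte lineage were lower in the dual group without overlap (538 to 572 against 498 to 533 CPM), and those of astrocytes (2.12%), fibroblasts (7.01%) and endothelial cells (7.18%) were higher on average with overlap. The part of these shifts in cell markers in the heavy chain difference was not tested.

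The genes that supply peptides to class I were examined next. Of the 5 immunoproteasome genes, 3 fell in the dual group, which are Psmb10 (log2 fold change -0.23 ± 0.042 SE, adjusted p-value 0.0260), Psme2 (-0.20 ± 0.039, 0.0358) and Psmb8 (-0.20 ± 0.039, 0.0393, edgeR). Psmb8 and Psmb10 encode catalytic subunits that replace those of the constitutive proteasome after interferon-γ, and Psme2 encodes a subunit of the PA28 activator. Psmb10 stood at 144, 160.2, 154 and 163 CPM in the A2A antagonist group and at 129, 141, 132 and 128 CPM in the dual group, without overlap. Psmb8 (158 to 175 against 137 to 151 CPM) and Psme2 (140.2 to 153 against 122 to 136 CPM) did not overlap either. All 5 estimates were below 0, with a median of -0.20. DESeq2's Wald test called all 5. In edgeR, leaving out any library other than A2A antagonist replicate 1 took the adjusted p-values of Psmb8 and Psme2 over 0.05 (0.0537 to 0.142 for Psmb8 and 0.0577 to 0.142 for Psme2), and Psmb10 lost its call when A2A antagonist replicate 2, 3 or 4, or else replicate 1 or 3 of the dual cultures, was left out (0.0540 to 0.106).

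Of the 9 genes for the light chain and peptide loading, none was called by edgeR, 3 had an unadjusted p-value under 0.05 and 8 had an estimate below 0, with a median of -0.066. DESeq2's Wald test called Tapbp, Tap1 and Tap2. Tapbp, which encodes tapasin, the bridge between the heavy chain and TAP, had a log2 fold change of -0.14 (adjusted p-value 0.101, edgeR). Tap1 (-0.13, 0.145) and Tap2 (-0.12, 0.164), the subunits of the peptide transporter, followed, and the groups did not overlap for Tap1 (156 to 167 against 143 to 155 CPM). The log2 fold change of B2m was -0.066 (adjusted p-value 0.406, edgeR), from 2470 ± 70.8 to 2360 ± 79.2 CPM (SD, n = 4). Dual replicate 4, the lowest library of its group for 6 of the 10 heavy chains, was the highest of its group for B2m, at 2471 CPM.

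**Figure D5:**
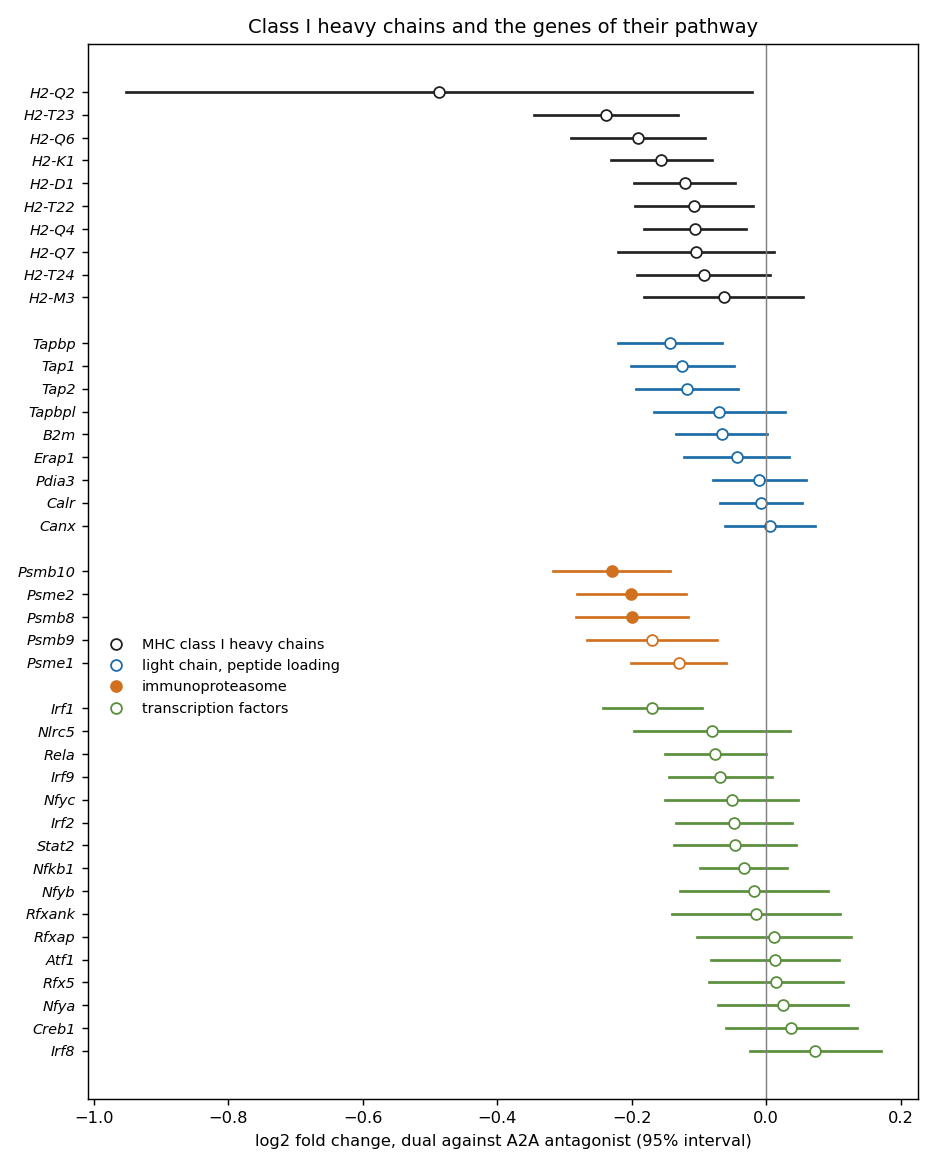
Log2 fold change of the heavy chains and of 3 lists of pathway genes, dual group against A2A antagonist group, with 95% intervals. Filled points passed an adjusted p-value of 0.05 in edgeR, and open points did not. The 10 heavy chains and the 5 immunoproteasome genes lie below 0, and the transcription factors lie around 0 with Irf1 the lowest.

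Of 16 transcription factors that act on class I promoters, edgeR called none, DESeq2 called Irf1, 2 had an unadjusted p-value under 0.05, and 10 had an estimate below 0, with a median of -0.026. Irf1, which binds the ISRE, stood at 127, 133, 138 and 137 CPM in the A2A antagonist group and at 122, 119, 118 and 118 CPM in the dual group, without overlap. Its log2 fold change was -0.17 ± 0.035 (SE), and its adjusted p-value was 0.0557 in edgeR and 0.00056 in DESeq2. Nlrc5, the class I transactivator (log2 fold change -0.081, adjusted p-value 0.581), Rela, a subunit of NF-κB (-0.076, 0.389), and Irf9, the subunit of ISGF3 that binds the ISRE (-0.068, 0.455, edgeR), overlapped between the groups. Of the 7 interferon receptor and kinase genes, 0 were called by edgeR or DESeq2 and 0 had an unadjusted p-value under 0.05, with a median of -0.019. Ifngr1 (-0.054), Ifnar1 (0.025) and Jak1 (0.022) had the smallest p-values among them. Jak1 was higher in the dual group without overlap (213.3 to 216.8 against 217.2 to 220.1 CPM).

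The other class I genes of the H2 region were split in direction. Of 22 listed, 14 were in the table and 11 passed the filter on low counts. None of these was called by edgeR or DESeq2, 0 had an unadjusted p-value under 0.05, 4 had an estimate below 0 and 7 above 0, with a median of 0.065. Those with the smallest p-values, Gm8909 (0.36), Gm10499 (0.38) and H2-T3 (0.65), stood at 1.69 CPM or less in every library, and the lower ends of their intervals lay below 0. H2-T10 and H2-Q1, named here after their values were seen because they are the near copies of H2-T22 and H2-Q2, stood at 21.3 ± 1.81 and 20.7 ± 0.914 CPM and at 18.6 ± 1.49 and 18.0 ± 0.679 CPM (SD, n = 4), with log2 fold changes of -0.040 and -0.048. The 95% intervals of H2-T10 and H2-Q1 ran from -11.2% to 6.50% and from -11.7% to 5.91%. A difference of the size seen in H2-T22 lies within both. The difference of H2-Q2, -28.7%, lay outside the interval of H2-Q1, although its own wide interval (-48.3% to -1.48%) overlapped that of H2-Q1.

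Of 12 class I-like genes outside the H2 region, 9 were tested and none was called by edgeR or DESeq2 or reached an unadjusted p-value under 0.05, with a median of 0.038. Hfe, the regulator of iron uptake, had a log2 fold change of -0.083 (adjusted p-value 0.471), and the NKG2D ligand genes Raet1d and Ulbp1 had 0.35 (0.404) and 0.19 (0.670, edgeR). Of 10 genes for receptors that recognise class I, 2 passed the filter, in cultures with few T and NK cell counts, and neither was called or reached an unadjusted p-value under 0.05. Pirb, an inhibitory receptor of myeloid cells, had -0.11 (adjusted p-value 0.547), and Cd160, at 0.815 CPM or less, had 0.40 (0.661, edgeR).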

How the data were processed

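The methods state that the authors mapped pairs of 150-base reads with HISAT2 to a mouse genome from Ensembl and obtained counts per gene with featureCounts (version 1.5.0-p3 and build mm10 in the submitters' processing notes). Library preparation is described differently in the labels and the methods. Tests were run on the deposited raw counts, which are not normalized. The order of levels was also read in the deposited FPKM, which the authors computed from the same counts. Each deposited table also holds columns of the authors' own comparison (log2 fold change, raw and adjusted p), which were not used. In the table against control, 9 columns of per-sample values belong to no sample of this series and were not used. The tables share 30302 genes, with 0 differing counts in the A2A antagonist libraries, and 0 rows name no gene.

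The test was that of edgeR 4.0.16 (R 4.3.3) on all 8 libraries (filterByExpr with a minimum count of 10, TMM scaling, quasi-likelihood F test without covariates, Benjamini-Hochberg adjustment over 18756 genes, called under 0.05, all p-values two-sided). The script was tested on simulated data. Standard errors come from the F statistics. Between replicates of a group, counts differed by more than sampling noise (chi-square per degree of freedom 3.58 to 8.65), and the common biological coefficient of variation was 5.28%. Every library was counted as a replicate, although this spread cannot show whether the libraries came from separate cultures. Alternatives were DESeq2 size factors, no filter on low counts, the DESeq2 1.42.0 Wald test, a replicate block and leaving out each library in turn. Samples with the same replicate number did not deviate together (correlations -0.0529 to 0.0408), so the numbers were not used as pairs. Gene names, coordinates and lengths are those of the deposited tables, and 9 of the 10 members have the same coordinates in GENCODE M21 (GRCm38), from which shared sequence and exon overlaps were computed. Named genes are the members, the genes called in each pathway list or the 3 with the smallest p-values where none was called, and B2m, Tap1, Nlrc5 and Irf1. 1 further gene of this choice was left out of it and of its list and is not reported here. The members and lists were chosen with earlier results of these data known.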

Additional observations from a re-analysis of the deposited data

Results flagged for a closer look

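Of 72 groups of 4 libraries tested in 36 named genes, 4 held a library far from the other 3 (Dixon's test at 95%), and chance flags about 1 in 20 groups. In the dual group, H2-D1 was lowest in replicate 4, at 3287 CPM, with the other 3 libraries at 3497 to 3522 CPM. Irf1 was highest in dual replicate 1, at 122.0 CPM, with the others at 118.0 to 118.6 CPM. Rela was lowest in A2A antagonist replicate 3, at 139 CPM, with the others at 145 to 147 CPM. Irf9 was lowest in A2A antagonist replicate 1, at 134 CPM, with the others at 144.5 to 145 CPM.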

How the results depend on the processing

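No member was called lower (0 of 10) with all libraries in edgeR, with DESeq2 size factors or with a replicate block. The number called lower was 4 without the filter on low counts and 4 with DESeq2's Wald test, and ranged from 0 to 4 when single libraries were left out (4 without A2A antagonist replicate 1, 1 without dual replicate 2). No member was called higher under any of these 12 alternatives. The median log2 fold change of the members, -0.11, ran from -0.15 to -0.094 over the left-out libraries. The causes were not tested. The replicate block, which treats equal replicate numbers as pairs although not every library correlated best with the one of its own number, gave adjusted p-values of 0.156 for H2-K1 and 0.107 for H2-T23, took Psmb8 (0.0778) and Psme2 (0.0738) over 0.05 and left Psmb10 called (0.0493). Of the other named genes, H2-Q10, which holds 22.4% of the 31-base words of H2-Q7, had an estimate of 0.065. That estimate ran from -0.10 (without A2A antagonist replicate 1, adjusted p-value 0.877, edgeR) to 0.25 over the left-out libraries. Over all genes, 39 were called in edgeR, 381 with DESeq2's Wald test, 366 without the filter, 17 with the replicate block and 0 to 172 without single libraries. Depth limits H2-Q2, with 31 to 88 counts per library, and shared sequence limits H2-T22, H2-Q4, H2-Q6 and H2-Q7.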
